A study of Mus musculus with 30 samples.

Results

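Bone marrow derived macrophages of C57BL/6 mice that had been given 25-hydroxycholesterol (25HC) and no other stimulus were compared with untreated macrophages of the same genotype. The comparison took 6 of the 30 RNA libraries of the series, chosen by their labels: 3 from cells given 25HC at 5 µM for 18 h and 3 from cells given nothing, in both cases without lipopolysaccharide (LPS) and collected at stimulation time 0. Both groups carry the mouse numbers 1, 2 and 3, and nothing states that a number is the same mouse in both groups. No vehicle is named for the untreated cells, so that 25HC cannot be told apart from its solvent or the handling at treatment. The other 24 libraries hold cells given itraconazole or OSW-1, cells stimulated with LPS, and macrophages of Ch25h-/- mice. Age and sex of the mice are not given in the sources used here. Nothing states whether macrophages of 1 mouse were split among dishes before treatment. The p-values therefore measure spread between libraries, estimated over all 30 libraries of the series and not over these 6 alone.

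25HC is made from cholesterol by the enzyme cholesterol 25-hydroxylase, encoded by Ch25h, which macrophages switch on in response to interferon and to Toll-like receptor ligands. It binds the INSIG proteins, which then hold the transcription factor SREBP-2 in the endoplasmic reticulum, so that genes of cholesterol synthesis and uptake are transcribed less. It is also a ligand of the liver X receptors (LXR), which turn on cholesterol export, and of the oxysterol-binding protein OSBP, which moves cholesterol and phosphatidylinositol 4-phosphate between the endoplasmic reticulum and the Golgi. The series groups 25HC with itraconazole and OSW-1 as inhibitors of OSBP.

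The 6 libraries held 29015396 to 38711824 counts and 14245 to 14517 genes with a count, with 1.5 to 1.76% of counts on mitochondrial genes. The library of 25HC-treated cells of mouse 3 stood apart: 46.13% of its nonzero counts were odd, whereas every count of the other 5 libraries was even, and the meaning of this was not tested. Some results are therefore also given without that library, or without both libraries of mouse 3. The named genes whose calls were lost without both libraries of mouse 3 are listed in the last section. Macrophage markers were present in all 6 libraries, with Csf1r, the receptor for colony-stimulating factor 1, at 1921, 1745 and 2646 CPM (counts scaled to library size) in untreated cells of mice 1, 2 and 3 and at 1820.5, 1833 and 2008 after 25HC. Of 16 macrophage identity genes, 1 rose (Cd14), 3 fell (Adgre1, Maf and Mertk, the last not without the untreated library of mouse 3 or the 25HC library of mouse 2) and 12 passed in neither direction. Markers of neutrophils and dendritic cells were scarce, with 5 and 2 genes tested, none called and summed levels of 2.08 to 6.41 CPM and 1.70 to 3.22 CPM in untreated cells against 0.982 to 2.02 and 1.52 to 1.91 CPM after 25HC. Of 10 lymphocyte markers only Cd4 and Cd79b passed the count filter, both were lower after 25HC (summed 23.97 to 38.8 against 8.74 to 14.0 CPM), and Cd3e, Cd8a and Ncr1 had no count in any of the 6 libraries. Cd79b was called in neither direction without the untreated library of mouse 1 or 3 or the 25HC library of mouse 1 or 2. Among osteoclast markers, Dcstamp and Mmp9 were higher (summed over 4 genes, 11.7 to 24.2 against 34.9 to 44.0 CPM), and the call of Mmp9 was lost without either library of mouse 1 or of mouse 2. Of 7 stromal markers Cxcl12 fell, and of mast cell markers 1 passed the count filter and was not called. The part that such cells may have in the results below was not tested. In bulk libraries, fewer cells of a type and less RNA per cell cannot be told apart.

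Many genes differed between 25HC-treated and untreated cells. Of 13173 genes tested, 2098 were higher after 25HC (15.9%) and 1686 lower (12.8%) at an adjusted p under 0.05, which is 28.7% called in all, and the median log2 change of all tested genes was 0.01. The shares of 15.9% higher and 12.8% lower are the background for every count of list members in this comparison. At least a doubling was found in 374 of the higher genes, and a fall of the same size in 426 of the lower ones. Values with ± after a gene are log2 changes with their standard error from a fit over all 30 libraries, and levels are CPM per library in the order mouse 1, 2, 3. The number of lower genes was 1022 without the untreated library of mouse 3, 1059 without the 25HC library of mouse 1 and 958 without the 25HC library of mouse 2, and 1735 without the 25HC library of mouse 3. The number of higher genes lay between 1401 and 2297 when any 1 of the 6 libraries was left out. With both libraries of mouse 3 left out, 1672 genes were higher and 1203 lower.

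**Figure D1:**
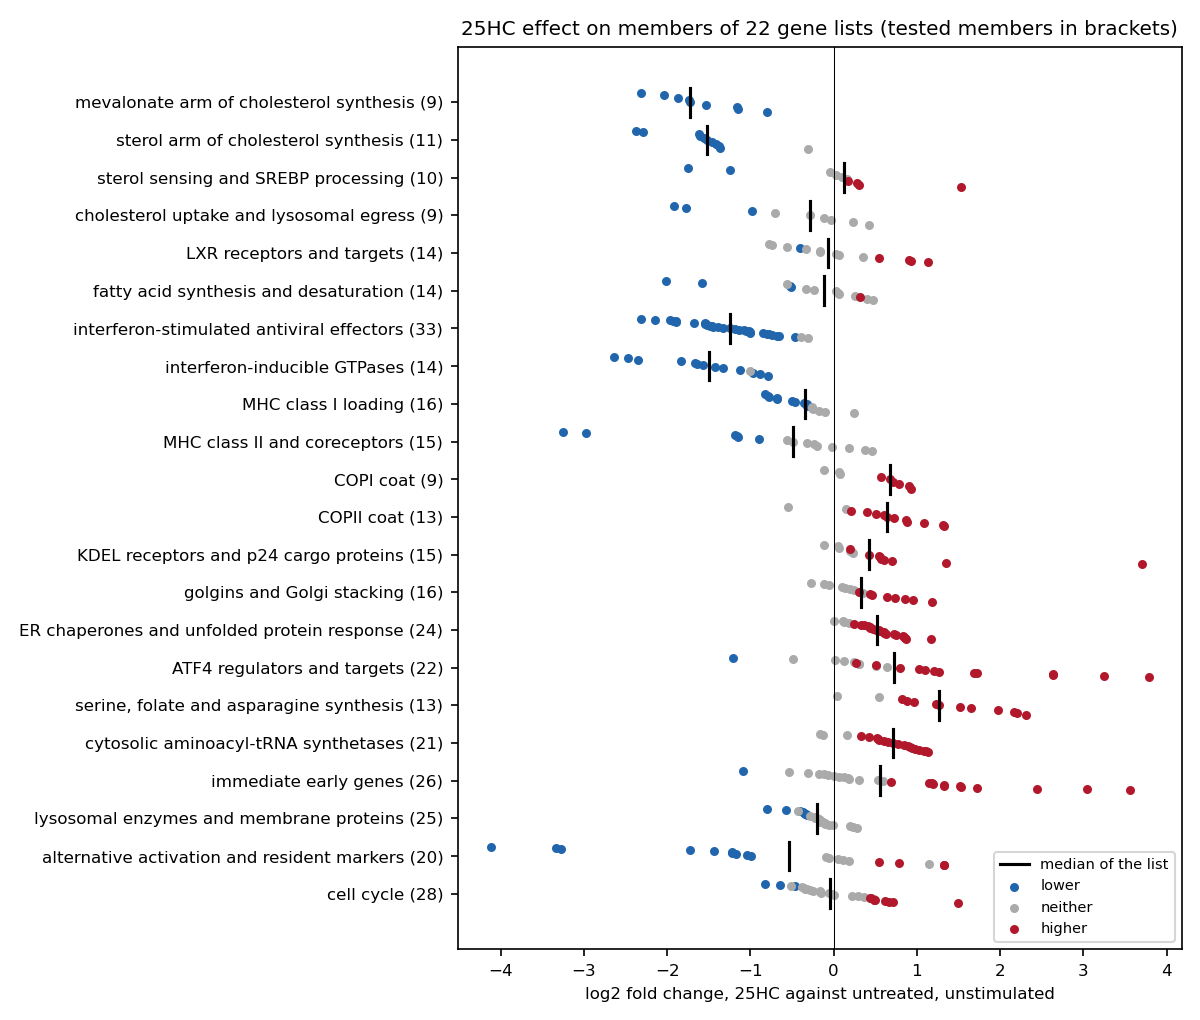
Log2 change with 25HC (horizontal axis) of each tested member of 22 gene lists in unstimulated macrophages; red points were called higher, blue points lower, grey points neither, and black bars mark list medians. The medians of both arms of cholesterol synthesis and of the interferon effector and GTPase lists lie furthest left of 0, and those of the coat, chaperone, ATF4, serine and tRNA synthetase lists lie right of 0.

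The promoters of Hmgcs1 and Cyp51 are shown as examples from the cholesterol synthesis genes, which fell together. SREBP-2 binds sterol regulatory elements together with the factor NF-Y, whose motif is the CCAAT box. The letters TCACNCCAC (a sterol regulatory element) and CCAAT were searched on both strands in the 250 bases before the annotated start of each gene, in the RefSeq promoter table of build GRCm38.p6, which held 15 of the 20 tested genes of cholesterol synthesis and 10072 of all tested genes. Capitals mark the matches, with ATTGG as the reverse strand of CCAAT.
Hmgcs1 promoter, chr13:119690101-119690340, plus strand: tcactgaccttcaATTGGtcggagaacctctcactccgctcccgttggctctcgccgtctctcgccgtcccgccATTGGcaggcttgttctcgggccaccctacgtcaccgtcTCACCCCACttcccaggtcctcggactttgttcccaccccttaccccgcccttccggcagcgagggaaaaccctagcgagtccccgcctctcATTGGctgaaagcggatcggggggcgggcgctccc
Cyp51 promoter, chr5:4104698-4104756, minus strand: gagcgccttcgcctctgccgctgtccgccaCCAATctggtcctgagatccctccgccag
CCAAT occurred in 14 of the 15 promoters (93.3%), against 40.6% of all tested genes with a promoter in the table. It is not particular to genes that fell: it also occurred in 18 of 20 promoters (90.0%) of the endoplasmic reticulum chaperone list below, whose called genes rose. The stricter sterol element was found in 1 of 15 (6.67%), that of Hmgcs1, against 1.26% of all. A match shows that these letters stand in the window and does not show binding.

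Cholesterol synthesis fell along nearly its whole length. In the mevalonate arm, which builds farnesyl units from acetyl-CoA, 9 of 9 tested members fell (background 12.8% of all tested genes), with a median log2 change of -1.72. Hmgcs1, which makes HMG-CoA, stood at 151, 168 and 106 CPM in untreated cells and at 38.3, 36.5 and 41.6 CPM after 25HC. The untreated library of mouse 3 was the lowest of its group, and even that one lay above all 3 treated ones (-1.87 ± 0.14, adjusted p = 8.63e-10). Fdps, which makes farnesyl diphosphate, went from 76.1, 85.6 and 42.7 CPM to 14.3, 14.3 and 12.4 CPM (-2.32 ± 0.23, adjusted p = 5.39e-08). Idi1, the isomerase before it, went from 17.3, 20.4 and 10.2 to 4.66, 4.33 and 2.64 CPM (-2.04 ± 0.26, adjusted p = 2.39e-06). Mouse 3 was the lowest untreated and the lowest treated library for both genes, and the groups did not overlap.

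The sterol arm, which turns squalene into cholesterol, had 10 of 11 members lower and a median of -1.52. Cyp51, the lanosterol demethylase and the protein that azole antifungals block in fungi, went from 101, 113 and 60.9 CPM to 17.7, 19.2 and 15.9 CPM (-2.38 ± 0.18, adjusted p = 1.29e-09). Mouse 3 was the lowest library before and after 25HC. Sqle, the squalene epoxidase, went from 87.4, 105 and 50.04 to 30.7, 31.5 and 17.5 CPM (-1.60 ± 0.20, adjusted p = 2.38e-06). The single member that missed the threshold was Ebp, a sterol isomerase, at 61.1, 60.4 and 58.8 CPM before and 47.2, 46.95 and 51.6 CPM after 25HC (-0.31 ± 0.12, adjusted p = 0.0552). Its 3 treated libraries lay below its 3 untreated ones, and with the mouse number as a replicate block its adjusted p was 0.0167.

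Genes that sense sterols went in both directions, while of 9 tested genes of cholesterol uptake and lysosomal egress 3 fell and none rose (median -0.29). Srebf2, which encodes SREBP-2, fell (263, 288 and 219 to 119, 110.0 and 96.9 CPM; -1.24 ± 0.09, adjusted p = 8.63e-10), and Insig1, which encodes an SREBP anchor, fell (195, 196 and 122 to 53.9, 49.1 and 49.6 CPM; -1.75 ± 0.15, adjusted p = 9.63e-09). Stard4, a cytosolic cholesterol carrier, fell (-1.78 ± 0.20, adjusted p = 4.65e-07), with log2 differences of -1.80, -2.00 and -1.43 between the 2 libraries of a mouse number. Scarb1, the high-density lipoprotein receptor, fell too (-0.98 ± 0.16, adjusted p = 5.01e-05). In the other direction went Rnf145, a ubiquitin ligase of the endoplasmic reticulum whose gene LXR activates, from 51.2, 57.1 and 58.6 to 181, 176 and 125 CPM (1.53 ± 0.15, adjusted p = 6.42e-08). Srebf1, encoding SREBP-1, rose slightly (0.30 ± 0.10, adjusted p = 0.0222), a call that was lost without the untreated library of mouse 3 or the 25HC library of mouse 1 or 2. Of 10 genes of sterol sensing and SREBP processing, 4 rose and 2 fell (median 0.13; 2 rose without the 25HC library of mouse 2), and the genes of lysosomal cholesterol egress Npc1 (-0.12 ± 0.12, adjusted p = 0.497) and Npc2 (-0.29 ± 0.14, adjusted p = 0.122) passed in neither direction. Of 14 fatty acid synthesis genes, 4 fell and 1 rose (background 12.8% lower and 15.9% higher). Those that fell were led by the desaturase Fads2 (-2.02 ± 0.36, adjusted p = 0.000188) and the acetyl-CoA synthetase Acss2 (-1.58 ± 0.30, adjusted p = 0.000303).

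**Figure D2:**
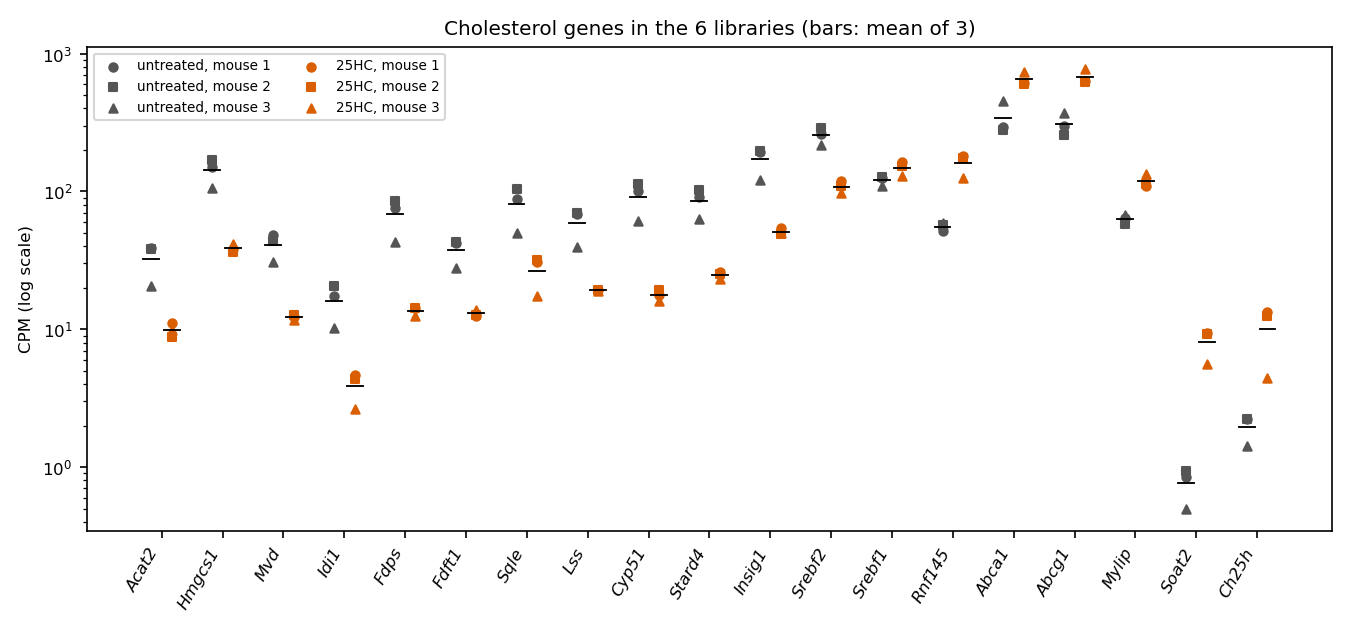
CPM (log axis) of 19 cholesterol genes in the 6 libraries; grey is untreated, orange is 25HC, circle, square and triangle are mice 1, 2 and 3, and short bars are group means. The synthesis and uptake genes from Acat2 to Srebf2 have every orange point below every grey one, and Rnf145, Abca1, Abcg1, Mylip, Soat2 and Ch25h the reverse.

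LXR targets for cholesterol export were higher, but the LXR list as a whole was not. Abcg1, which exports cholesterol to high-density lipoprotein, went from 297, 257 and 369.8 to 636, 619 and 773 CPM (1.13 ± 0.13, adjusted p = 1.05e-06). Abca1, which loads apolipoprotein A-I, went from 295, 278 and 452 to 616, 606 and 732 CPM (0.93 ± 0.21, adjusted p = 0.00169). For both, mouse 3 was the highest library of each group, and the groups did not overlap. Mylip, a ubiquitin ligase that limits lipoprotein uptake, rose (0.91 ± 0.14, adjusted p = 3.07e-05), and so did Arl4c, a small GTPase (0.54 ± 0.11, adjusted p = 0.000593). These 4 were the only ones called higher of 14 tested members (background 15.9% higher and 12.8% lower), whose median was -0.07. Rxra, the partner receptor of LXR, was the 1 called lower (-0.41 ± 0.09, adjusted p = 0.00165). Apoe, a lipid carrier of macrophages and an LXR target, had 833, 882 and 1959 CPM before and 474, 505 and 1217 CPM after 25HC and did not pass (-0.74 ± 0.56, adjusted p = 0.343). It was lower at each mouse number (log2 differences -0.81, -0.80 and -0.69), and with the mouse number as a replicate block its change was -0.77 with an adjusted p of 0.000217.

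Among cholesterol-storing and oxysterol genes, most did not pass and a few changed. Soat2, which esterifies cholesterol and is better known from liver and intestine, went from 0.851, 0.938 and 0.495 CPM to 9.37, 9.22 and 5.57 CPM (3.38 ± 0.32, adjusted p = 3.62e-08), while its macrophage counterpart Soat1 had 284 ± 4.37 and 264 ± 32.6 CPM (mean ± SD, n = 3; -0.10 ± 0.10, adjusted p = 0.497). Ch25h itself, the gene of the enzyme that makes 25HC, was higher at 13.3, 12.5 and 4.46 CPM than at 2.22, 2.24 and 1.42 CPM (2.35 ± 0.55, adjusted p = 0.00219). Ch25h and Cyp27a1, described next, were the 2 called among 5 oxysterol genes. Mouse 3 was the lowest library of both Ch25h groups, and its treated library still lay above every untreated one. Cyp27a1, which makes 27-hydroxycholesterol, fell (56.9, 43.98 and 96.1 to 20.4, 19.1 and 42.8 CPM; -1.26 ± 0.36, adjusted p = 0.0113), and Gpr183, the receptor for a dihydroxylated product of 25HC, did not pass (0.32 ± 0.33, adjusted p = 0.508). The call of Cyp27a1 was lost without the untreated library of mouse 3 or the 25HC library of mouse 1 or 2. Of 11 esterification and lipid droplet genes, 4 rose (Soat2, Hilpda, Acsl1 and G0s2) and 7 passed in neither direction. Over all tested genes 15.9% were higher and 28.7% called in all, and with so few genes neither list is taken to stand apart. G0s2 was scarce (means of 0.182 and 0.759 CPM). Its call was lost without the low-count filter, with only the groups compared, or without either library of mouse 1 or 2. Acsl1 lost its call without either library of mouse 1, the untreated library of mouse 3 or the 25HC library of mouse 2. Hilpda was not called with limma-voom (adjusted p = 0.0789), and 2 of the 11 rose when 1 of the untreated library of mouse 1, the 25HC library of mouse 1 or the 25HC library of mouse 2 was left out, or both libraries of mouse 3.

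Genes of the secretory pathway were higher in each of the coat, cargo receptor and golgin lists. OSBP itself rose slightly, with Osbp at 76.6, 71.9 and 68.9 CPM in untreated and 100.3, 101 and 88.5 CPM in treated cells (0.41 ± 0.09, adjusted p = 0.000736). Its relative Osbpl11 fell (-0.80 ± 0.10, adjusted p = 2.71e-06), and 9 of 11 family members passed in neither direction. Of 16 genes of contact sites between endoplasmic reticulum and Golgi, 7 rose and 2 fell (1 fell without the untreated library of mouse 2). Acbd3, a Golgi scaffold for a phosphatidylinositol 4-kinase, rose from 56.2, 57.8 and 57.7 to 112, 117 and 108 CPM (0.97 ± 0.11, adjusted p = 5.6e-07). The ceramide carrier CERT, encoded by Col4a3bp, rose by a smaller amount (0.54 ± 0.11, adjusted p = 0.000926). Among 17 genes of sphingomyelin and ceramide metabolism, 7 rose and 5 fell (background 15.9% and 12.8%; 3 fell without the 25HC library of mouse 2), with the sphingomyelin synthase Sgms1 (0.67 ± 0.14, adjusted p = 0.00106) among the first and the sphingomyelinase Smpd3 (-1.98 ± 0.47, adjusted p = 0.00267) among the second.

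COPII coats carry proteins out of the endoplasmic reticulum, and COPI coats carry them back from the Golgi. Of 13 COPII genes, 11 rose and none fell (background 15.9% higher; median 0.64), and of 9 COPI genes, 6 rose and none fell (median 0.68). Sec31a, an outer COPII subunit, went from 81.6, 81.3 and 73.7 CPM to 204, 211 and 181 CPM (1.33 ± 0.11, adjusted p = 4.12e-09). Sec24d, a COPII cargo adaptor, went from 58.2, 55.97 and 49.6 to 140.5, 145 and 121 CPM (1.31 ± 0.09, adjusted p = 2.74e-10). Cope, a COPI subunit, went from 102, 107 and 103 to 177, 184 and 177 CPM (0.79 ± 0.06, adjusted p = 8.63e-10), with log2 differences of 0.80, 0.78 and 0.78 by mouse number. In all 3 genes every treated library exceeded every untreated one. Kdelr2, the receptor that returns escaped chaperones to the endoplasmic reticulum, went from 51.2, 54.4 and 47.1 to 138, 131 and 121 CPM (1.35 ± 0.08, adjusted p = 1.93e-11), and Kdelr3, a paralog of it, from 4, 0 and 2 counts to 28, 22 and 29 (3.71 ± 0.57, adjusted p = 2.99e-05), too few for a firm size. Kdelr1 did not pass (0.07 ± 0.09, adjusted p = 0.609). Over 15 KDEL receptor and p24 cargo genes, 9 rose and none fell (median 0.42), and over 16 golgin and stacking genes 8 rose and none fell (median 0.33), with Golim4 at 1.19 ± 0.13 (adjusted p = 4.03e-07) and the stacking protein gene Gorasp2 at 0.86 ± 0.07 (adjusted p = 4.7e-09).

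Creb3, a transcription factor anchored in the endoplasmic reticulum and cut in the Golgi, rose from 55.6, 53.9 and 49.1 CPM to 116, 126 and 98.8 CPM (1.10 ± 0.10, adjusted p = 4.07e-08). Arf4, a Golgi GTPase whose gene CREB3 activates, rose from 122, 127 and 122 to 195, 195 and 199.9 CPM (0.67 ± 0.09, adjusted p = 1.12e-05). Each treated library exceeded each untreated one for both genes. Of 14 CREB3 and Golgi stress genes, 6 rose and 1 fell (background 15.9% higher and 12.8% lower, median 0.31), and 3 rose without the untreated library of mouse 3.

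Chaperones of the endoplasmic reticulum and the unfolded protein response came next. Their promoters often carry the ER stress response element, searched here on both strands as CCAAT followed after 9 free bases by CCACG, so that each match also holds a CCAAT box. In the RefSeq table (GRCm38.p6), 20 of the 24 tested genes had a promoter, and 9 of these (45.0%) held the element in the 250 bases before the start, against 0.159% of all tested genes. Of Hspa5 and Calr, which encode the chaperones BiP and calreticulin, the stretches around the element are shown with it in capitals.
Hspa5 promoter, chr2:34771995-34772073, plus strand: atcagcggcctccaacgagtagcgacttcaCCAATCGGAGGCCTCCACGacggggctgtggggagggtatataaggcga
Calr promoter, chr8:84847045-84847123, minus strand: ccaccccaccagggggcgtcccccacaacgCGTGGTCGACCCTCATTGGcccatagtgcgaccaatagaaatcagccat
Of the 24 genes, 20 rose and none fell (median 0.52), and 12 rose without the untreated library of mouse 3 or without both libraries of mouse 3. Hspa5 went from 933, 997 and 692 CPM to 1609, 1772 and 1426 CPM (0.87 ± 0.13, adjusted p = 1.85e-05). Hyou1, a chaperone of the same compartment, went from 108, 117 and 70.7 to 233, 252 and 178 CPM (1.17 ± 0.15, adjusted p = 3.15e-06). The untreated library of mouse 3 was the lowest for both. Calr rose less (0.54 ± 0.14, adjusted p = 0.0047; adjusted p = 0.0562 without both libraries of mouse 3), and the sensor genes Ern1 (0.01 ± 0.13, adjusted p = 0.962) and Atf6 (0.18 ± 0.09, adjusted p = 0.126) did not pass, while Xbp1, the factor activated by IRE1, rose (0.63 ± 0.07, adjusted p = 6.9e-07).

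ATF4, the transcription factor made when the initiation factor eIF2 is phosphorylated, drives amino acid genes through an element close to TGATGNAA. That string was found in 9 of 42 promoters of ATF4, serine and tRNA synthetase genes (21.4%; 56 genes tested) against 2.49% of all tested genes. The matches in Chac1 and Asns, whose transcripts rose, are shown in capitals from the same table (TTGCATCA is a match on the opposite strand).
Chac1 promoter, chr2:119351019-119351086, plus strand: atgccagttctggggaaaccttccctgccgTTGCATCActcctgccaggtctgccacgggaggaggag
Asns promoter, chr6:7693210-7693262, minus strand: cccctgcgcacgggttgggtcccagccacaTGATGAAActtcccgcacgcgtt
Atf4 rose from 168, 161 and 121 CPM to 377, 405 and 303 CPM (1.27 ± 0.18, adjusted p = 9.5e-06), and Ddit3, encoding the stress factor CHOP, from 33.4, 31.005 and 32.6 to 63.2, 72.8 and 71.9 CPM (1.10 ± 0.26, adjusted p = 0.00209). Chac1, which degrades glutathione, went from 1.04, 1.56 and 0.557 to 11.3, 14.96 and 4.26 CPM (3.25 ± 0.47, adjusted p = 1.53e-05). Trib3, a pseudokinase that restrains ATF4, went from 10.6, 7.82 and 3.96 to 53.9, 58.03 and 28.04 CPM (2.63 ± 0.39, adjusted p = 1.85e-05). In Chac1 and Trib3 the mouse 3 library was the lowest of each group, and the 2 groups stayed apart. Slc6a9, a glycine transporter, was among the 12 genes with the highest changes (3.79 ± 0.60, adjusted p = 4.22e-05). Over 22 ATF4 regulators and targets, 13 rose (median 0.72), and 1 fell: Ddit4, an inhibitor of mTORC1 (7.84, 7.30 and 7.06 to 3.63, 3.15 and 2.77 CPM; -1.21 ± 0.17, adjusted p = 1.15e-05).

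Enzymes that make and charge amino acids rose with them. Asns, the asparagine synthetase, went from 36.95, 35.1 and 16.9 CPM to 151, 172 and 79.1 CPM (2.17 ± 0.35, adjusted p = 5.81e-05), and Mthfd2, a mitochondrial folate enzyme, from 38.4, 41.2 and 20.4 to 143, 161 and 88.1 CPM (1.97 ± 0.26, adjusted p = 3.93e-06). Of 13 serine, folate and asparagine genes, 11 rose and none fell, with a median of 1.27. Of 21 aminoacyl-tRNA synthetase genes, 18 rose and none fell (median 0.71), including Aars, for alanine (1.13 ± 0.19, adjusted p = 7.76e-05), and Yars, for tyrosine (1.11 ± 0.19, adjusted p = 0.000119).

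Interferon-stimulated genes were lower across nearly the whole list. Interferon signals through a complex that holds STAT2 and IRF9 and binds the interferon-stimulated response element, here searched on both strands as GAAA followed after 2 free bases by GAAA. It was found in 20 of 32 promoters of antiviral effector and GTPase genes (62.5%; 47 genes tested), against 3.42% of all tested genes with a promoter in the RefSeq table. Ifit3 held 2 matches and Gbp7 held 1, all on the strand opposite to the gene, so that the capitals show the reverse complement of the element.
Ifit3 promoter, chr19:34583343-34583446, plus strand: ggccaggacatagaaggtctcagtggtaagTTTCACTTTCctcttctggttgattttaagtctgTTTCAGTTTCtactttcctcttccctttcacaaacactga
Gbp7 promoter, chr3:142530253-142530322, plus strand: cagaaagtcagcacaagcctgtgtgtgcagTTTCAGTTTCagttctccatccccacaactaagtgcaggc
Ifit3, which binds viral RNA with its partners, went from 75.8, 104 and 122 CPM to 24.7, 22.4 and 20.7 CPM (-2.15 ± 0.32, adjusted p = 2.09e-05). Mouse 3 was the highest of the untreated libraries and the lowest of the treated ones, so that its own log2 difference was the largest (differences of -1.61, -2.22 and -2.56). Oas2, a sensor of double-stranded RNA, went from 129, 151 and 137 to 51.1, 49.4 and 48.7 CPM (-1.48 ± 0.17, adjusted p = 6.52e-07). Zbp1, a sensor of Z-form nucleic acid that can start cell death, went from 37.9, 56.5 and 43.6 to 12.2, 14.7 and 9.23 CPM (-1.93 ± 0.24, adjusted p = 1.74e-06). Of 33 antiviral effectors, 31 fell and none rose, with a median of -1.24. The exceptions were Ifi35 (-0.31 ± 0.18, adjusted p = 0.22) and Bst2 (-0.39 ± 0.16, adjusted p = 0.066).

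Interferon-inducible GTPases attack vacuoles that hold pathogens. Of 14 tested, 13 fell and none rose (median -1.50), and all 14 had their treated libraries below their untreated ones, against 22.6% of all tested genes. Gbp7 went from 29.9, 33.2 and 46.1 CPM to 7.07, 6.02 and 6.59 CPM (-2.47 ± 0.27, adjusted p = 3.86e-07). Iigp1 went from 5.06, 7.30 and 17.8 to 1.37, 0.787 and 2.70 CPM (-2.64 ± 0.41, adjusted p = 3.33e-05). For both, mouse 3 was the highest untreated library. Gbp and Ifit genes have close paralogs, and how reads shared between them were counted is not given in the sources used here.

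The genes that transmit interferon signals moved less uniformly. Of 23, 8 fell and 3 rose (background 12.8% lower and 15.9% higher). None was called higher without the untreated library of mouse 1 or 2 or the 25HC library of mouse 2. Only 1 was called higher without the 25HC library of mouse 1 or with DESeq2's size factors. Irf7, the amplifier of type I interferon transcription, went from 160.2, 223 and 161 CPM to 72.2, 77.1 and 53.8 CPM (-1.42 ± 0.25, adjusted p = 0.000118), and Stat2 from 168, 189 and 165 to 79.95, 75.7 and 66.7 CPM (-1.23 ± 0.19, adjusted p = 3.09e-05). Irf9 fell less (-0.32 ± 0.10, adjusted p = 0.0144), and its call was lost without the untreated library of mouse 2 or the 25HC library of mouse 1 or 3. Ifnar1, a chain of the type I interferon receptor, was slightly higher (0.32 ± 0.12, adjusted p = 0.0439), a call that was lost without any 1 of the libraries other than the 25HC library of mouse 3.

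Part of the antigen presentation genes were lower. Ciita, the master regulator of MHC class II transcription, was under 1 CPM in every library after 25HC, at 0.196, 0.394 and 0.732 CPM against 2.46, 2.03 and 5.82 CPM before (-2.98 ± 0.55, adjusted p = 0.000235). H2-Aa, a class II chain, went from 14.7, 16.5 and 27.000 to 6.38, 10.7 and 8.31 CPM (-1.19 ± 0.39, adjusted p = 0.0217). In both genes mouse 3 was the highest untreated library, and H2-Aa was not called without that library or the 25HC library of mouse 1. Of 15 class II and coreceptor genes, 6 fell and none rose (background 12.8% lower, median -0.49). Only 2 fell without the untreated library of mouse 3, without the 25HC library of mouse 1 or without both libraries of mouse 3. Over all tested genes, 1022 of 13403, 1059 of 13350 and 1203 of 13396 were lower in these fits, in that order. Of 16 class I loading genes, 10 fell, none rose and 6 passed in neither direction (median -0.34), with the peptide transporter gene Tap1 at -0.68 ± 0.16 (adjusted p = 0.003) and the immunoproteasome gene Psmb9 at -0.79 ± 0.15 (adjusted p = 0.000271).

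**Figure D3:**
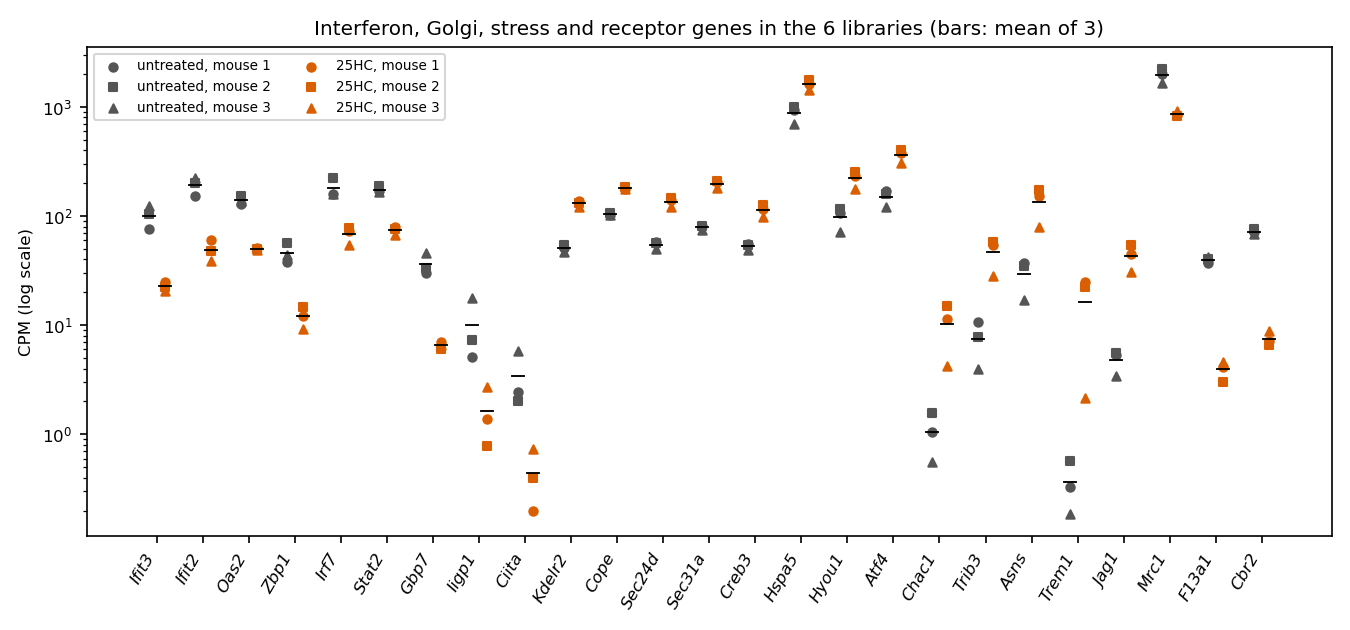
CPM (log axis) of 25 interferon, antigen presentation, secretory pathway, stress and receptor genes in the 6 libraries, with grey for untreated, orange for 25HC and circle, square and triangle for mice 1, 2 and 3; short bars are group means. Genes from Ifit3 to Ciita, and Mrc1, F13a1 and Cbr2, have all orange points below all grey ones, the genes between them the reverse, and the orange triangle of Trem1 lies far below the other orange points.

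The 12 highest and 12 lowest changes, taken over genes whose groups did not overlap and whose mean log2 CPM over all 30 libraries of the series reached 2, came from several of these groups and from others. Trem1, a receptor that amplifies myeloid inflammation, had the highest change: its libraries held 0.331, 0.573 and 0.186 CPM before and 24.7, 22.2 and 2.16 CPM after 25HC (5.46 ± 0.82, adjusted p = 2.22e-05). The treated library of mouse 3 was far below the other treated ones, and it lay above the untreated ones, as the rule requires. The same held for Gpr84, a receptor for medium-chain fatty acids (2.27, 2.45 and 2.11 to 30.2, 39.3 and 5.47 CPM; 3.46 ± 0.45, adjusted p = 3.91e-06). Jag1, a Notch ligand, went from 5.34, 5.58 and 3.41 to 44.8, 54.6 and 30.6 CPM (3.17 ± 0.22, adjusted p = 7.29e-10). Olfml3, which encodes a secreted glycoprotein, went from 0.662, 0.313 and 0.372 to 6.72, 6.13 and 8.66 CPM (3.96 ± 0.54, adjusted p = 5.85e-06). Plk3, a stress kinase, rose too (3.04 ± 0.25, adjusted p = 7.04e-09). Flrt3 (3.82), Chpf (2.85), Abtb2 (2.81) and Dnmt3l (2.90) completed the 12, beside Slc6a9, Soat2 and Chac1 above. Flrt3 and Dnmt3l rested on few counts in untreated cells, 4, 6 and 2 for the first and 0, 10 and 4 for the second, and Dnmt3l was not called without the untreated library of mouse 1 or the 25HC library of mouse 2, or with limma-voom (adjusted p = 0.0764).

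At the lower end stood several genes of the list of alternatively activated and tissue-resident macrophages. That list was written with earlier results of these data known, so that their place there is no independent result. Ms4a4a, which encodes a membrane protein of such cells, fell from 10.1, 10.01 and 29.04 CPM to 0.589, 0.394 and 1.94 CPM (-4.12 ± 0.64, adjusted p = 3.23e-05). F13a1, encoding a subunit of coagulation factor XIII, fell from 36.9, 40.6 and 41.99 to 4.17, 3.04 and 4.58 CPM (-3.34 ± 0.54, adjusted p = 5.35e-05), and Cbr2, a carbonyl reductase gene, from 71.2, 76.4 and 68.6 to 7.12, 6.52 and 8.75 CPM (-3.27 ± 0.25, adjusted p = 2.17e-09). The rule that the groups do not overlap fixes the same direction in each mouse for these 3 genes. Mrc1, the mannose receptor, fell from 1983, 2209 and 1640.0 to 847, 829.9 and 919 CPM (-1.17 ± 0.26, adjusted p = 0.00145). Over 20 alternative activation and resident genes, 10 fell, 4 rose and 6 passed in neither direction (median -0.54). Among the 6 were Folr2 (-0.09 ± 0.14, adjusted p = 0.701) and Mgl2 (0.05 ± 0.47, adjusted p = 0.953). The 4 that rose were Egr2, Klf4, Tgm2 and Cd36. Egr2 was not called without any 1 of the untreated libraries or the 25HC library of mouse 3. Neither Egr2 nor Cd36 was called without both libraries of mouse 3. The lowest 12 also held the endothelial lipase gene Lipg (-3.53), the interferon-induced Ifitm1 (-2.61), Gm4951 (-2.54) and Slfn1 (-2.38), the sulfotransferase gene Sult1a1 (-2.56) and the receptor gene Gprc5c (-2.43), beside Iigp1, Gbp7 and Cyp51 above. With limma-voom and the mouse number as a random effect, Lipg (adjusted p = 0.0647) and Slfn1 (adjusted p = 0.143) were not called.

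Single inflammatory mediators were higher or lower without LPS, but their list was called about as often as genes in general. Of 29 cytokine, chemokine and mediator genes, 7 rose and 3 fell (background 15.9% higher and 12.8% lower; median 0.37), and 4 rose without the untreated library of mouse 3, the 25HC library of mouse 1 or that of mouse 2. Tnf went from 10.9, 14.3 and 10.6 CPM to 43.2, 53.8 and 20.9 CPM (1.72 ± 0.44, adjusted p = 0.00507). Cxcl2, a neutrophil attractant, went from 2.41, 1.98 and 3.28 to 18.7, 25.4 and 4.71 CPM (2.68 ± 0.46, adjusted p = 0.000104), and Ccl2, a monocyte attractant, from 31.05, 48.5 and 16.7 to 165, 188 and 35.4 CPM (2.01 ± 0.60, adjusted p = 0.014). In all 3 genes the treated library of mouse 3 was the lowest of its group, and for Ccl2 it lay among the untreated ones. The call of Ccl2 was lost without the untreated library of mouse 3 or the 25HC library of mouse 1 or 2. Il10, an anti-inflammatory cytokine, fell (3.21, 3.60 and 4.95 to 1.03, 1.46 and 1.46 CPM; -1.57 ± 0.32, adjusted p = 0.000608). Il1b was scarce in both groups (2.13, 0.313 and 2.04 and 0.638, 0.225 and 0.382 CPM) and was called lower with overlapping groups (-1.80 ± 0.53, adjusted p = 0.0119), a call lost without the untreated library of mouse 1 or 3 or the 25HC library of mouse 2, and with limma-voom (adjusted p = 0.218). Cx3cr1, the fractalkine receptor, rose from 7.70, 8.23 and 10.96 to 70.6, 70.8 and 40.001 CPM (2.76 ± 0.48, adjusted p = 0.000127). It was 1 of 3 chemokine receptor genes higher among 15, near the background of 15.9%, and 1 was higher when either library of mouse 1, the untreated library of mouse 3, the 25HC library of mouse 2 or both libraries of mouse 3 were left out.

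Immediate early genes, the first to answer growth and stress signals, numbered 26, of which 12 rose and 1 fell (background 15.9% higher and 12.8% lower, median 0.56). Dusp4, a phosphatase of MAP kinases, went from 17.5, 18.5 and 8.79 CPM to 84.1, 101 and 59.6 CPM (2.44 ± 0.44, adjusted p = 0.00017), and Dusp1, another, from 35.1, 36.2 and 34.99 to 108, 117 and 81.8 CPM (1.53 ± 0.19, adjusted p = 1.49e-06). Klf2, a factor that restrains macrophage activation, was the 1 lower (-1.09 ± 0.28, adjusted p = 0.00443; adjusted p = 0.0886 without both libraries of mouse 3). Of 26 scavenger and phagocytic receptor genes, 6 rose and 5 fell, near the background of 15.9% and 12.8% (3 fell without the untreated library of mouse 3 or the 25HC library of mouse 2), with Msr1, which takes up modified lipoproteins, at 1.07 ± 0.26 (adjusted p = 0.00271) and the IgG receptor Fcgr4 at -1.72 ± 0.22 (adjusted p = 2.68e-06).

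Proliferation genes gave a mixed picture that changed with the fit and when single libraries were left out. Of 28, 8 rose (Ccnd1, Ccne1, Ccne2, Rrm2 and 4 of the Mcm helicase genes) and 3 fell (Ccnb2, Cenpf and Birc5, all of mitosis, the last not without the untreated library of mouse 1 or the 25HC library of mouse 1 or 2), with a median of -0.04. Ccnd1, a cyclin of G1 phase, went from 189, 325 and 102 CPM to 723, 772 and 233 CPM (1.49 ± 0.35, adjusted p = 0.00256), with mouse 3 lowest in both groups and its treated library within the untreated range. Mki67, a general mark of dividing cells, did not pass (319 ± 23.4 and 256 ± 5.32 CPM, mean ± SD, n = 3; -0.32 ± 0.27, adjusted p = 0.415). Only 1 gene rose without the untreated library of mouse 3, the 25HC library of mouse 1 or that of mouse 2, and 5 without the untreated library of mouse 1 or without both libraries of mouse 3. A fit of these 6 libraries alone called 1 gene higher and 10 lower, Mki67 among the latter (adjusted p = 0.0111), and in 12 of the 28 genes every treated library lay below every untreated one, against 22.6% of all tested genes.

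Lysosomal and metabolic genes held smaller changes, and the background for their counts was 15.9% higher and 12.8% lower. Of 25 lysosomal genes, 8 fell and none rose (median -0.20; 5 fell without the 25HC library of mouse 1 or mouse 2), the legumain gene Lgmn falling from 1604, 1568 and 1893 to 821, 826 and 1268 CPM (-0.80 ± 0.16, adjusted p = 0.000735). Of 24 genes of the proton pump and the MiT/TFE factors, 1 rose, Atp6v1h, and 1 fell, Flcn, encoding folliculin (-0.67 ± 0.12, adjusted p = 0.000198). Of 18 glycolysis genes, 5 rose and none fell (background 15.9% higher; 3 rose without the untreated library of mouse 1 or 3 or the 25HC library of mouse 1 or 2), with the glucose carrier Slc2a1 at 1.27 ± 0.22 (adjusted p = 0.000132) and the hexokinase Hk2 at 1.32 ± 0.20 (adjusted p = 2.7e-05). Of 18 genes of NRF2, glutathione and iron, 5 rose and 1 fell, with the thioredoxin reductase Txnrd1 at 1.17 ± 0.24 (adjusted p = 0.000703).

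Itraconazole, a triazole antifungal, was given at 1 µM for 18 h and OSW-1, a plant steroidal saponin, at 0.3 µM for 18 h, against 5 µM of the oxysterol 25HC. Each compound was used at 1 dose and the doses differ, so that the tests compare these treatments and not the compounds at equal dose, over 2 pairs. These contrasts share the 25HC libraries with the comparison against untreated cells. The direct contrast of 25HC and itraconazole called 31 of 13173 genes (0.235%), 11 higher with 25HC (0.0835%) and 20 lower (0.152%), and 67 with the mouse number as a replicate block. Of the 20 lower genes, 15 belong to the cholesterol synthesis, sensing and uptake lists, and of the 11 higher ones 3 to the LXR list (Abca1, Abcg1 and Mylip) and 3 to the coat and Golgi lists (Cope, Copb2 and Gorasp2). Leaving out the 25HC library of mouse 2 gave 20 calls, the itraconazole library of mouse 2 gave 19 and that of mouse 3 gave 20. No library left out ended the calls of Idi1, Cyp51, Srebf2, Abcg1, Cd28 or Cope, whereas Mylip, Copb2 and Gorasp2 each lost the call without 1 or another of the libraries of mice 1, 2 and 3. Fads2 was not called when any 1 of the 25HC or itraconazole libraries was left out. Abca1 was not called without the 25HC library of mouse 3 or any 1 of the itraconazole libraries.

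Srebf2 stood at 219, 225 and 226 CPM after itraconazole and at 119, 110.0 and 96.9 CPM after 25HC, with no overlap (difference -1.04 ± 0.09, adjusted p = 2.83e-07). Cyp51 stood at 50.1, 55.3 and 60.4 CPM against 17.7, 19.2 and 15.9 (difference -1.65 ± 0.18, adjusted p = 5.41e-06). Both were thus lower with 25HC than with itraconazole, as were Idi1 (-1.77 ± 0.26, adjusted p = 0.000553) and Fads2 (-1.75 ± 0.36, adjusted p = 0.0301). Abcg1 stood at 314, 265 and 339 CPM after itraconazole against 636, 619 and 773 after 25HC (difference 1.14 ± 0.13, adjusted p = 2.83e-05), and Abca1 at 272, 309 and 336 against 616, 606 and 732 (difference 1.09 ± 0.21, adjusted p = 0.0154). Cd28, a costimulatory receptor gene, had the highest difference (1.16 ± 0.19, adjusted p = 0.0024) although both treated groups lay below untreated cells, at 35.4 ± 1.01 CPM after itraconazole and 79.4 ± 21.3 after 25HC against 183 ± 16.9 untreated (mean ± SD, n = 3). For the interferon gene Ifit3 the difference was not called (41.1, 27.5 and 21.9 CPM after itraconazole; -0.41 ± 0.31, adjusted p = 0.872), nor for Kdelr2 (108, 104 and 105 CPM; 0.30 ± 0.07, adjusted p = 0.102, or 0.0197 with the replicate block) or Atf4 (0.36 ± 0.18, adjusted p = 0.666), which does not show that the treatments act alike on them.

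Against OSW-1, 373 genes were called (2.83%), 177 higher with 25HC (1.34%) and 196 lower (1.49%), and 642 with the mouse number as a replicate block. None of 20 cholesterol synthesis genes was among them (median differences 0.09 and 0.14 for the mevalonate and sterol arms), with Hmgcs1 at 35.3, 36.3 and 37.4 CPM after OSW-1 (difference 0.09 ± 0.13, adjusted p = 0.782). Of the 33 antiviral effectors 18 were higher with 25HC than with OSW-1, and of the 14 GTPases 6, and none of either was lower. These counts were 4 and 2 without the 25HC library of mouse 1, 10 and 5 without that of mouse 2, 4 and 2 without the OSW-1 library of mouse 1 and 6 and 3 without that of mouse 2. Ifit3 stood at 6.49, 6.30 and 8.18 CPM after OSW-1 against 24.7, 22.4 and 20.7 after 25HC (difference 1.70 ± 0.33, adjusted p = 0.00736), and Rsad2, the antiviral enzyme viperin, at 13.4, 12.7 and 16.6 against 72.2, 44.03 and 53.2 (difference 1.99 ± 0.49, adjusted p = 0.0265). Every OSW-1 library lay below every 25HC library for both genes, and every 25HC library below every untreated one. The highest differences were those of Cd38 (3.26 ± 0.87, adjusted p = 0.0414), Rsad2, Tnfsf10 (1.95 ± 0.39, adjusted p = 0.00893), Marco (1.90 ± 0.44, adjusted p = 0.0191) and Cmpk2 (1.86 ± 0.42, adjusted p = 0.0149). The lowest were those of Il1b (3.96, 3.81 and 3.98 CPM after OSW-1; -3.20 ± 0.48, adjusted p = 0.000834), Cxcl1 (-2.53 ± 0.58, adjusted p = 0.0174), Fn1 (-2.48 ± 0.60, adjusted p = 0.0228), Olfml3 (-1.84 ± 0.42, adjusted p = 0.0165) and Cx3cr1 (163, 202 and 202 CPM; -1.64 ± 0.45, adjusted p = 0.0463). The count fell when single libraries were left out: it was 86 without the 25HC library of mouse 1, 139 without that of mouse 2, and 95 and 124 without the OSW-1 libraries of mice 1 and 2. The cause was not tested. Of the 10 genes just named only Il1b was called without each of the 6 libraries in turn, and Cd38 and Cx3cr1 were not called when any 1 of them was left out.

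**Figure D4:**
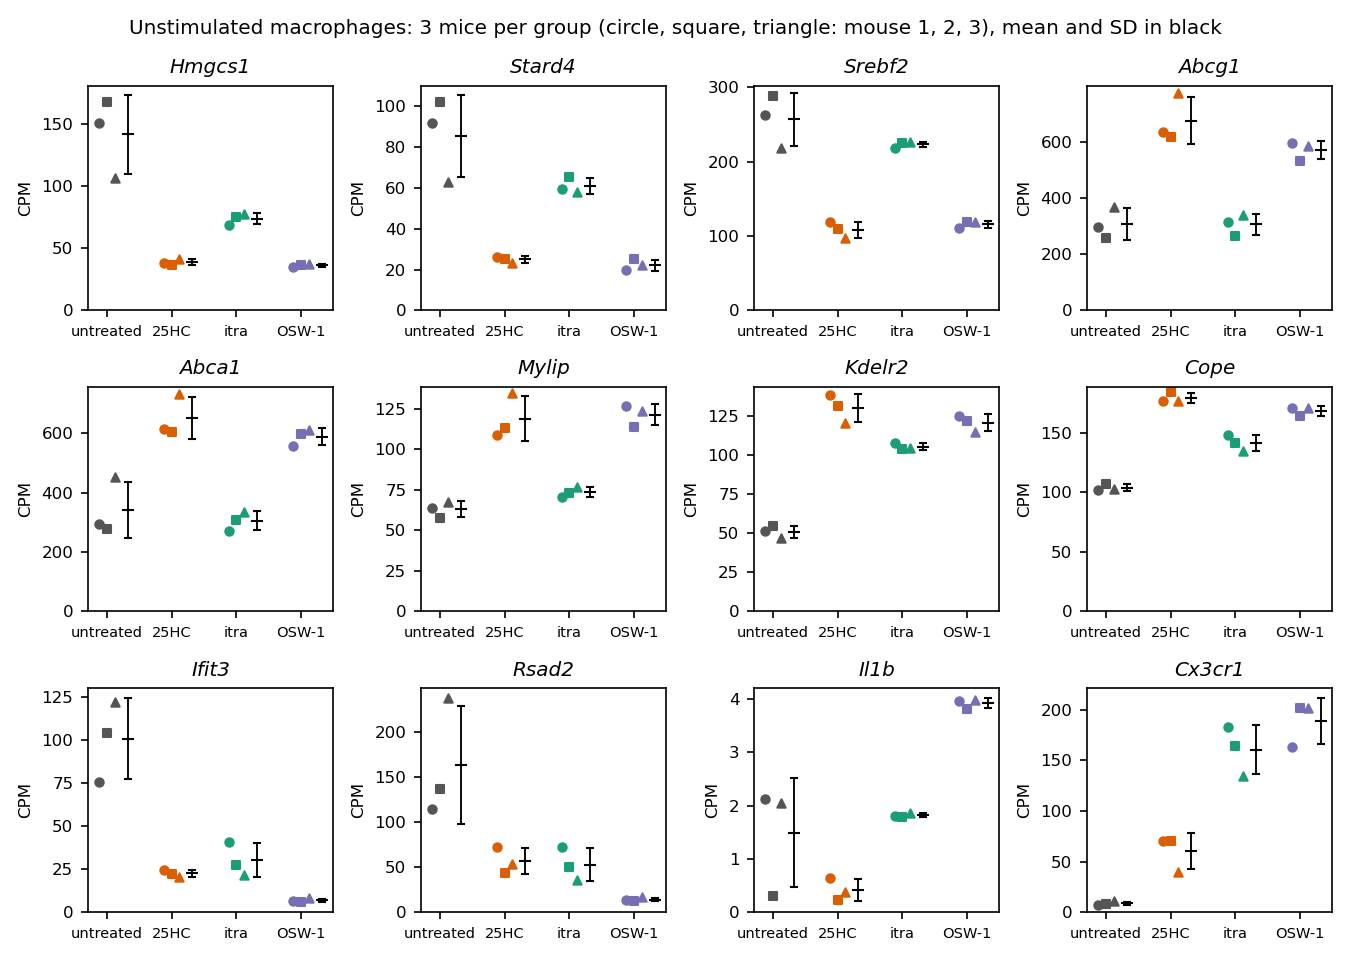
CPM (linear axes from 0) of 12 genes in unstimulated macrophages that were untreated or given 25HC (5 µM), itraconazole (1 µM, itra) or OSW-1 (0.3 µM); symbols are mice 1, 2 and 3 and black bars are the mean and SD of 3. Stard4 and Srebf2 are lower with 25HC and OSW-1 than with itraconazole, Abca1, Abcg1 and Mylip are higher with the same pair, and Ifit3 and Rsad2 are lowest with OSW-1.

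The effect of 25HC was set beside its effect in cells given LPS (10 ng/mL, 18 h) against cells given LPS alone, which shares no library with the unstimulated comparison. By the labels, 18 h of 25HC came before LPS, whereas the unstimulated cells were collected at stimulation time 0. The 2 settings thus differ in LPS and in the time of collection, and these cannot be told apart. With LPS, 2746 genes were higher with 25HC (20.8%) and 2766 lower (21.0%). Of the 2098 genes higher at rest, 1180 were also higher with LPS (56.2% of the first and 43.0% of the second list), and 63 (3.00%) were lower. Of the 1686 genes lower at rest, 908 were also lower with LPS (53.9 and 32.8%), and 69 (4.09%) were higher. The difference of the 2 effects was called for 1620 genes (12.3%), 704 higher with LPS (5.34%) and 916 lower (6.95%). That count was 1014 without the untreated library of mouse 3, 1037 and 1030 without the unstimulated 25HC libraries of mice 1 and 2, and 1062 and 889 without the 25HC and LPS libraries of mice 1 and 2.

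Cholesterol synthesis was lower with 25HC in both settings, with medians of -1.72 and -1.72 for the mevalonate arm and -1.52 and -1.92 for the sterol arm, and the difference between settings was called for 3 of 20 genes. With LPS, 3 of 33 antiviral effectors were lower (median -0.13) and the difference was called for 21, all higher (10 without the 25HC and LPS library of mouse 1), and 2 of 14 GTPases were lower (median -0.03) with 7 differences called, all higher (12 without the 25HC and LPS library of mouse 3). Gbp7 is an example: with LPS its libraries held 161, 189.6 and 129 CPM without and 236, 189 and 109.6 CPM with 25HC (0.16 ± 0.24, adjusted p = 0.634), and the difference from its effect at rest was 2.63 ± 0.36 (adjusted p = 6.73e-05). Oas2 behaved likewise (-0.31 ± 0.17 with LPS, adjusted p = 0.144; difference 1.18 ± 0.24, adjusted p = 0.00231). The chaperone list also differed, with 6 of 24 higher and 3 lower with LPS (median 0.05) and 11 differences called, all lower (7 without the untreated library of mouse 3, the 25HC library of mouse 2 or the 25HC and LPS library of mouse 1). COPII genes had a median of 0.64 in each setting, with 11 of 13 higher in each and 1 difference called. Scarb1 (-0.94 ± 0.22, adjusted p = 0.00739) and Mthfd2 (-1.67 ± 0.35, adjusted p = 0.00354) were among the genes of other lists with a called difference.

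**Figure D5:**
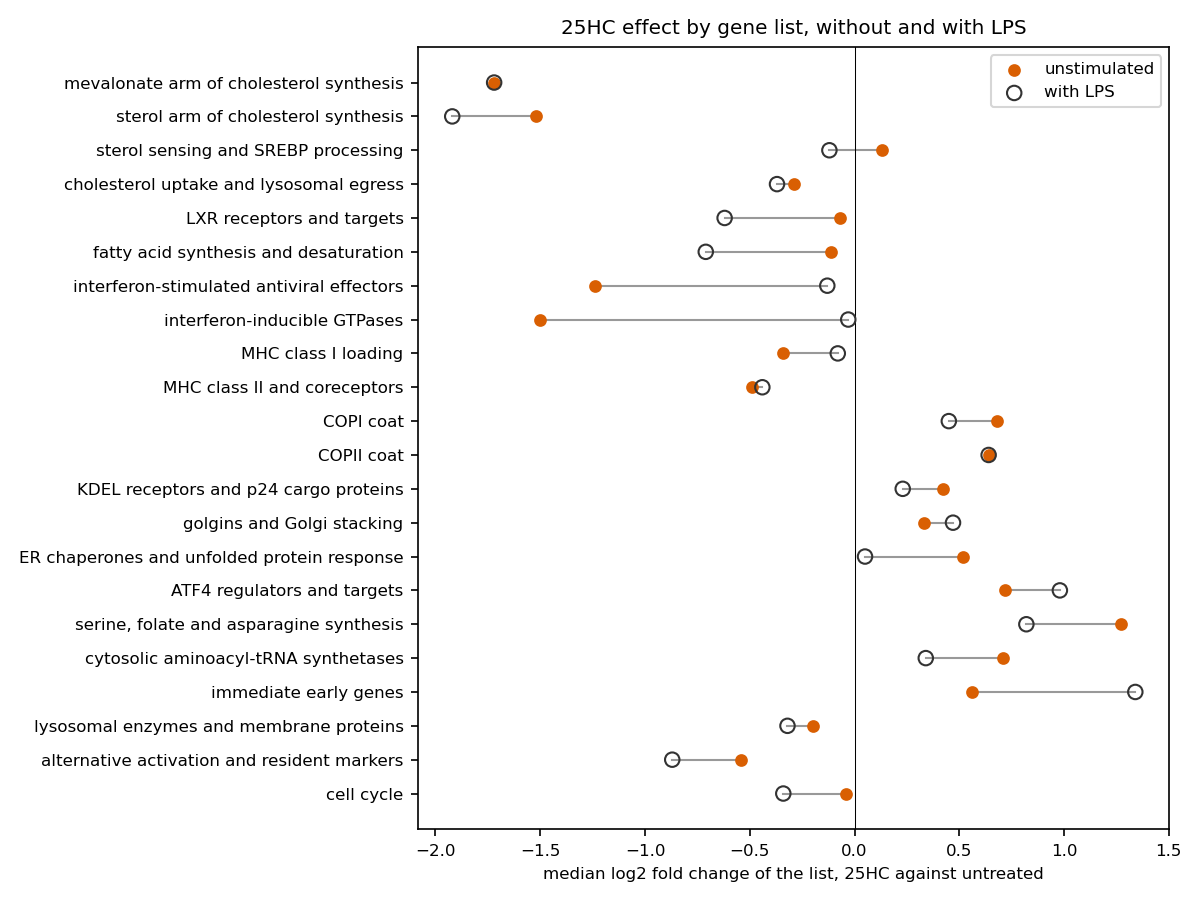
Median log2 change with 25HC of 22 gene lists in unstimulated macrophages (orange) and in macrophages given LPS (open circles), joined by a line. The interferon effector and GTPase lists lie at -1.24 and -1.50 at rest and at -0.13 and -0.03 with LPS, and the mevalonate and COPII lists show the same median in both.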

How the data were processed

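RNA from 30 macrophage libraries was measured by stranded polyA sequencing. The authors deposited whole-number counts per Ensembl gene, made with GSNAP and Subread 1.5.2 featureCounts on GRCm38 (mm10) after FastQC 0.11.9, with edgeR 3.26.8 also listed, per the submitters' processing notes. The strand setting and annotation release are not given in the sources used here, so antisense and overlapping genes are uncertain. In 20 of the 30 libraries every deposited count was even; the cause was not tested, and a fit with these libraries halved was among the alternatives.

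From these counts, 13173 genes that passed edgeR's filter (minimum count 10) were fitted with edgeR 4.0.16 (R 4.3.3, TMM, quasi-likelihood test, 1 coefficient per group over all 30 libraries, Benjamini-Hochberg adjustment over all tested genes). A gene was called at an adjusted p under 0.05, and CPM are TMM-normalised. Deviations of libraries of the same mouse number had correlations of 0.101, 0.191 and 0.317 for mice 1, 2 and 3. They were 0.072 and 0.12 between mice 1 and 2 and -0.242 to -0.133 between mouse 3 and the others. The data thus set mouse 3 apart and do not separate mice 1 and 2. Any pairing rests on the numbers in the labels, and nothing states that a number is the same mouse in both groups. The mouse number as a replicate block was an alternative, beside DESeq2 1.42.0, its size factors, limma-voom (limma 3.58.1), no filter, only the groups compared and each library left out. Leaving out both libraries of mouse 3 was added after the data were seen. On counts simulated for the comparison with untreated cells, 98.0% of 100 genes moved 2-fold and 58.0% of 100 moved 1.5-fold were recovered. The moved genes all lay above 2 in mean log2 CPM, and the other 12973 of the 13173 genes were left unmoved. All-even libraries were not simulated, so recovery at lower levels or in data like these was not tested. Named genes are the 12 highest and 12 lowest called changes (5 and 5 for other contrasts) that passed 1 in log2 change and 2 in mean log2 CPM over all 30 libraries and whose groups did not overlap, a set of 35 sterol, stress and immune genes, and members of 42 lists; all were chosen with earlier results of these data known, and some genes that this rule names are not reported here. Gene names were matched through GENCODE vM21 for 30126 of 30538 rows, and promoters through RefSeq (GRCm38.p6) for 10072 tested genes. Motifs were common consensus forms entered by hand, and the sequences come from that table.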

Additional observations from a re-analysis of the deposited data

Results flagged for a closer look

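The effect of 25HC differed between resting and LPS-treated macrophages for 1620 genes, by the test of the difference itself. In this difference, LPS and the later time of collection cannot be told apart. By the rule for named genes, the 5 with the highest differences were Cxcl1 (4.61), Il1b (4.39), Il1a (4.23), Thbs1 (4.15) and Sapcd2 (4.08), on the log2 scale. The 5 with the lowest were Olfml3 (-5.52), Depdc1b (-4.53), Il18rap (-4.03), Exo1 (-3.71) and Shcbp1 (-3.50).

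Cxcl1, a neutrophil chemokine, stood at 0.0473, 0.0521 and 0.372 CPM in untreated and 0.245, 0.112 and 0.191 CPM in 25HC-treated resting macrophages of mice 1, 2 and 3, and at 1.60, 1.80 and 0.79 CPM with LPS alone and 27.1, 60.03 and 45.7 CPM with LPS and 25HC. Il1b stood at 1586, 1096 and 2029 CPM with LPS alone and 8362, 11973 and 8030.4 CPM with LPS and 25HC, and Il1a at 160.4, 128 and 48.4 and 2088, 3782 and 1540.0 CPM. With LPS, all 3 cytokine genes were thus higher with 25HC in every library, while at rest they were scarce. Without the untreated library of mouse 3, Cxcl1 (3.16, adjusted p = 0.285) and Il1a (3.23, adjusted p = 0.186) were not called. Olfml3, which was higher with 25HC at rest, stood at 0.983, 1.44 and 2.80 CPM with LPS alone and 0.319, 0.417 and 1.06 CPM with LPS and 25HC. Sapcd2 (9.64, 9.17 and 7.43 CPM untreated, 9.37, 8.72 and 8.37 with 25HC, 0, 0 and 0 with LPS and 0.127, 0 and 0.0666 with both) was not called under most other settings, among them the replicate block (adjusted p = 0.0641), and with no count in any library given LPS alone its fitted size is no bound. The calls of Depdc1b and Exo1 were lost without the 25HC and LPS library of mouse 1 or of mouse 2, and those of Thbs1, Olfml3, Il18rap and Shcbp1 held under every alternative run.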

How the results depend on the processing

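Against untreated cells, no gene named in the report reversed under any alternative run. Higher genes numbered 1895 with DESeq2's size factors, 1912 without a low-count filter, 2028 with DESeq2, 2432 with limma-voom, 2070 with only the 2 groups fitted and 2054 with the even libraries halved, and lower genes 1882, 1452, 2091, 2152, 2022 and 1741. With the mouse number as a replicate block, 2325 genes were higher and 1970 lower, and 2 of 137 named genes changed their call, Ebp and Apoe, which the report gives. Limma-voom ended the calls of 5 named genes, Dnmt3l, Hilpda, Il1b, Lipg and Slfn1. Leaving out both libraries of mouse 3 ended the calls of 14 named genes. These were Acsl1, Calr, Ccne1, Ccne2, Cd36, Cd79b, Egr2, H2-Aa, Hilpda, Ifnar1, Il1b, Irf9, Klf2 and Rrm2. Leaving out 1 library gave 1401 to 2297 higher and 958 to 1735 lower genes, and the cause was not tested beyond the smaller number of samples. Each alternative called 61.8 to 99.3% of the genes of the main call. Against itraconazole, 67 genes were called with the replicate block, 111 with DESeq2, 102 with limma-voom, 83 with only the groups compared, and 19 to 32 without 1 library. Against OSW-1, 642 genes were called with the replicate block, 714 with DESeq2, 808 with limma-voom and 86 to 334 without 1 library. The LPS difference was called for 903 genes with only the 4 groups compared and for 889 to 2076 without 1 library. The cause of these shifts was not tested. Genes under 1 CPM rest on few counts at this depth, and 11735 genes had no count in any library.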
